A study of Mus musculus with 16 samples.

Results

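The enzymes, regulators and carrier that make cholesterol and fatty acids were followed as a set of 31 genes in mouse CD4+ T cells. The members were taken by gene symbol from the count files, in which they are 31 of 23337 symbols. All 31 were found, 1 of them (Msmo1) under its older symbol Sc4mol, and all 31 had enough reads to be among the 12952 genes tested. The list was drawn up with earlier results on these libraries known, and its rule already states that the genes differ strongly between replicate numbers.

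The cells came from C57BL/6 mice of genotype Dgcr8f/f Tbet-/- CD4-cre, so every group, controls included, lacks T-bet (gene Tbx21) and carries a T cell deletion of Dgcr8, which is needed to process most microRNAs. CD4-cre acts from a thymic stage of the lineage onward, and cells were sorted as live RosaYFP+ CD4+, a reporter of Cre activity. They were stimulated through CD3 and CD28 for 3 days with 10 U/ml of IL-4, then rested for 2 days with 20 U/ml of IL-2. On day 1 and day 4 they received 500 nM of a synthetic microRNA (a mimic) of miR-23a, miR-24 or miR-27a, or a control mimic. Each of the 4 groups has 4 libraries numbered 1 to 4, for 16 in all. The labels give neither the age of the mice nor what a number stands for, such as a mouse, a culture or a day, and p-values measure the spread between libraries.

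Cholesterol is built from acetyl-CoA by way of mevalonate, isoprenoids, squalene and lanosterol, and fatty acids are built from the same acetyl-CoA. Both routes are controlled by SREBP transcription factors, which the escort protein SCAP carries from the endoplasmic reticulum to the Golgi when membrane sterol is low, while INSIG proteins hold SCAP back when sterol is high. Activated T cells raise this programme to build membranes, and dividing cells depend on it.

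The labels name no arm or sequence of the mimics. The 3p arms, the usual guide strands, are given here as an assumption so that their pairing sites in the members can be shown. Their mature forms in RefSeq (GRCm38.p6) are printed with the seed, bases 2 to 8, in capitals:
miR-23a-3p: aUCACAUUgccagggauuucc
miR-24-3p: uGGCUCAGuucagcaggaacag
miR-27a-3p: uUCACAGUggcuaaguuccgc
The 3 seeds differ, although miR-23a and miR-27a share the letters UCACA. The genes lie on chromosome 8 in 1 cluster (miR-23a at chr8:84208563-84208583, miR-27a at chr8:84208727-84208747 and miR-24 at chr8:84208875-84208896, all on the plus strand). The same miR-24 sequence is also encoded at chr13:63301251-63301272.

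Sites pairing with a seed (the 8mer AATGTGAA, CTGAGCCA or ACTGTGAA for the 3 microRNAs in that order, or a 7mer within it) were looked for on the sense strand of the longest annotated 3′ UTR of each gene (GENCODE M21, GRCm38). For miR-23a, 8 of 31 members held any site and 2 an 8mer, beside 22.8% and 6.31% of the 20935 genes searched. For miR-24 the counts were 7 and 2, beside 22.7% and 7.37%. For miR-27a they were 9 and 1, beside 26.2% and 5.95%. These sites, with the bases that match in capitals and GRCm38 positions of the match on the gene's own strand, are examples from members called between groups, chosen after their values were seen:
Scd2, miR-23a 8mer at chr19:44305559-44305566, plus strand: ccacttaaacaAATGTGAAaaataaaagca
Insig1, miR-24 7mer at chr5:28077787-28077793, plus strand: tgaaaaccaatCTGAGCCttgtattctcgt
Acly, miR-24 8mer at chr11:100477236-100477243, minus strand: CTGAGCCAggagccctactgtaggaaaagg
Acly, miR-27a 7mer at chr11:100476535-100476541, minus strand: aaagcaaaaagCTGTGAAatgtcttgtgtc
Hsd17b7, miR-27a 7mer at chr1:169950587-169950593, minus strand: gaatgagtgttCTGTGAAtttttcttcaca
Members called between groups that hold further sites are Scd2 (2 miR-27a 7mers), Fasn (1 miR-24 and 2 miR-27a 7mers), Hmgcs1 (1 miR-27a 7mer) and Insig1 (1 miR-23a 7mer). A match of these letters is a description of the annotated sequence, and pairing at any of them was not measured.

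Gene reads per library ran from 2120408 to 13714841 in 15 libraries. Control replicate 1 had 51474, so 1 read there is worth 16.3 CPM (reads scaled to one library size, with a correction for composition) and 3 reads 48.8 CPM. In that library 11 members had 0 reads, 14 had 1 to 3 and 6 had more, with at most 10 reads for any member, so its member values are given as reads and say little. In the other libraries Dgcr8 had 32.5 to 58.4 CPM, a gene-level count that does not separate the deleted part, and Tbx21 at no more than 5.20 CPM. Summed markers of other cells were low in those 15 libraries: B cell genes at 0 to 18.1 CPM, CD8 genes at 8.88 to 35.7, NK genes at 0 to 5.18, myeloid genes at 6.50 to 22.2, dendritic cell genes at 12.1 to 82.2 and class II genes at 14.2 to 113 CPM. T cell markers summed to between 1498 and 3101 CPM across all 16.

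The members spanned a wide range of levels. Per kilobase of exon, over 15 libraries, the median level was highest for Acly, which makes cytosolic acetyl-CoA, at 25.6 CPM per kb, followed by Hsd17b7 (19.4), Scd2 (18.9), Srebf2 (17.7) and Cyp51 (14.2). Tm7sf2, a sterol reductase, was lowest at 0.312 CPM per kb, below Mvk (1.02), Scd1 (1.03) and Msmo1 (1.05). Exons of Tm7sf2 share 12.1% of their bases with Vps51 on the same strand. Between the lowest and highest of these 15 libraries, Ggps1, which makes geranylgeranyl diphosphate, varied 1.69-fold. Over the same libraries Insig1 varied 20.9-fold, Scd2 20.9-fold, Hsd17b7 23.4-fold and Scd1 92.4-fold, although Scd1 reached only 36.3 CPM. These last 4 members set the scale of the variation described below.

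**Figure D1:**
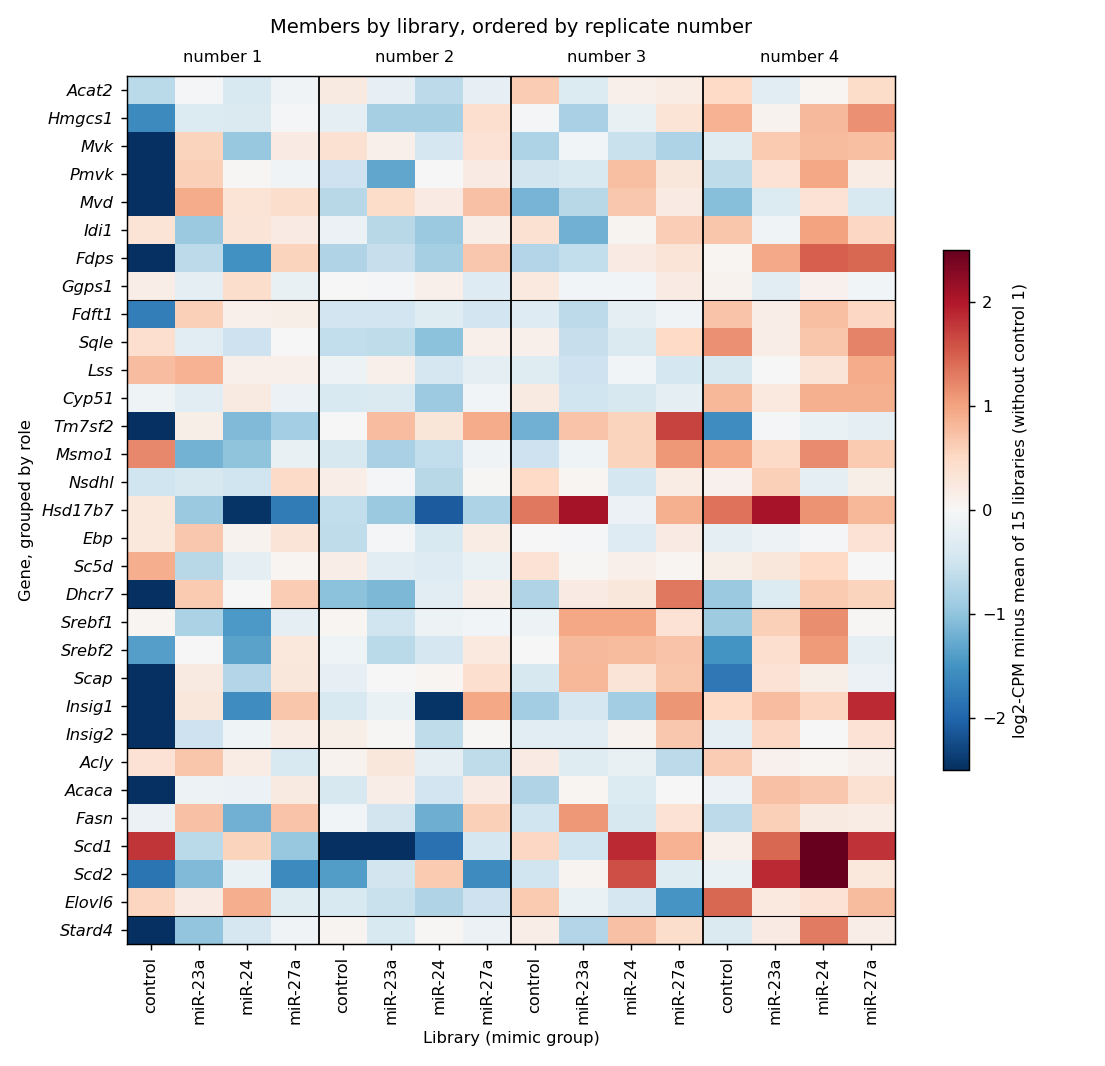
Each row is a member and each column a library. Colour is log2 CPM minus the member's mean over the 15 libraries without control replicate 1, clipped at the ends of the colour bar. Columns numbered 4 hold many high values, and control replicate 1 (51474 gene reads) is mostly low or erratic.

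Libraries numbered 4 carried more of these transcripts. With group in the model, 26 of 31 members were higher in number 4 than in the mean of the other numbers, with a median log2 difference of 0.44. Of these, 13 passed at an adjusted p under 0.05 (edgeR quasi-likelihood test, Benjamini-Hochberg over all genes tested), beside 3.74% of all genes called higher, and 0 were called lower, beside 1.73%. The opposite lean was seen in number 2, where 27 of 31 were lower with a median of -0.31 and 4 were called lower, beside 1.31% of all genes. Number 1 had 2 members called lower (4.55% of all genes) and number 3 had 1 called higher (5.71%). Over all 4 numbers together 11 of 31 members differed, beside 13.7% of all genes. Since the list's rule states this variation, these counts describe it and are not independent support. The share of all genes with each sign was not counted for the numbers, so the counts of signs have no background.

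Over the 15 deeper libraries, the mean was highest in number 4 for 21 of 31 members, against 21.3% of all genes. It was lowest in number 2 for 15 members, for which no share of all genes was counted. Library by library, with the mean taken over all 16, 29 of 31 members lay above their own mean in miR-24 replicate 4, 26 in miR-27a replicate 4, 25 in miR-23a replicate 4 and 19 in control replicate 4. In the number 2 libraries 18 did so with miR-27a, 13 with control, 11 with miR-23a and 8 with miR-24. Of all tested genes, 54% to 60.6% lay above their mean in each of the 15 deeper libraries, since control replicate 1 is low for most genes (30.3%). In each group, number 4 was the library with the most members above their mean. Gene reads in number 4 (6289783 to 12582408) lay inside the span of the other numbers. The share of reads from ribosomal Rn45s ran from 0.300% to 10.3% in number 4 and from 1.77% to 5.31% in number 2. Summed proliferation genes ran from 12785 to 18062 CPM in number 1, 9310 to 23753 in number 4, 10632 to 14734 in number 2 and 7133 to 11218 in number 3. The part of depth, Rn45s and proliferation in the differences was not tested, and replicate number cannot be told apart from whatever batch or animal it may mark.

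**Figure D2:**
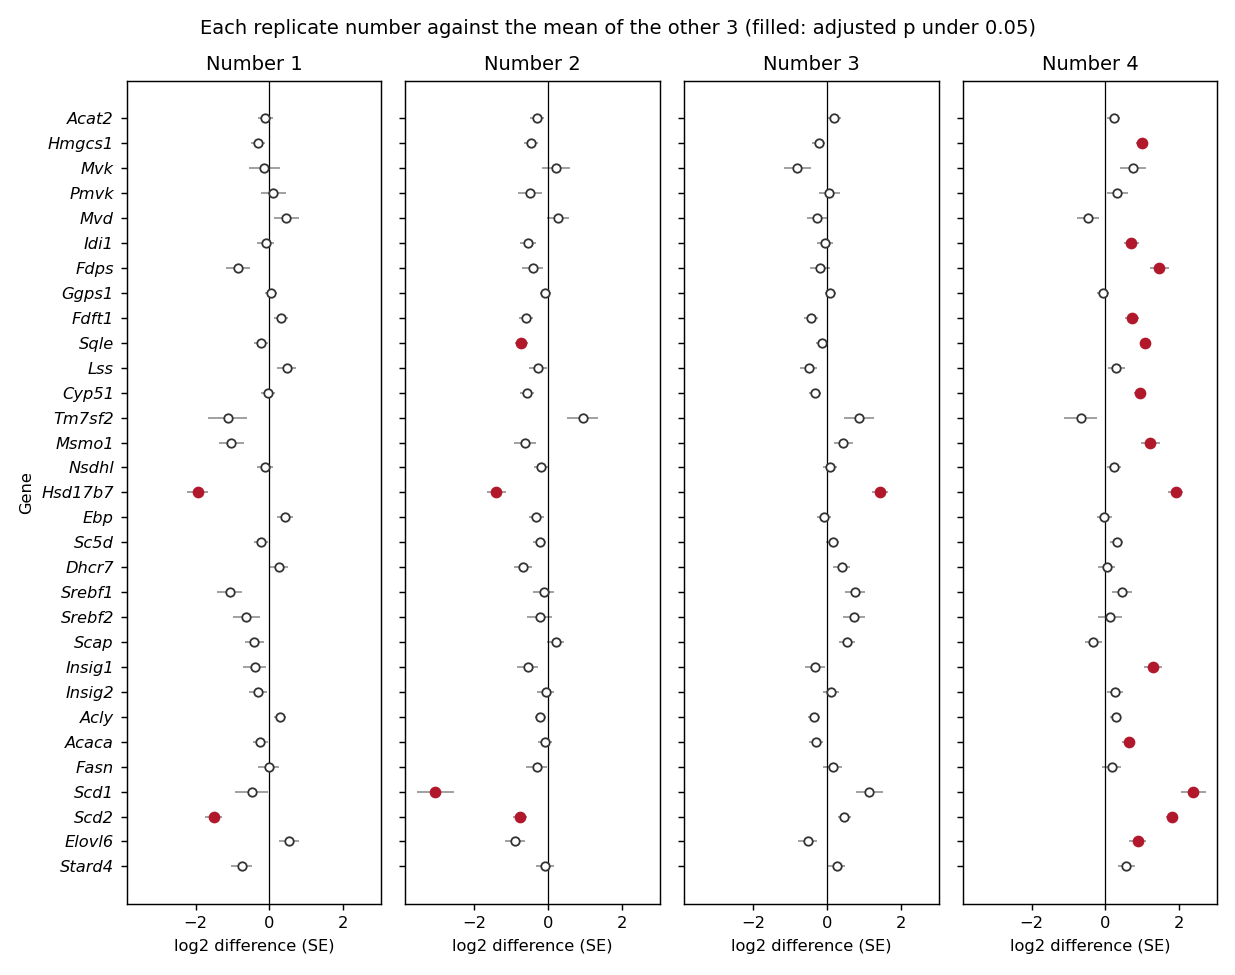
Log2 difference of each replicate number from the mean of the other 3 numbers, with group in the model; bars are standard errors and filled points have an adjusted p under 0.05. In number 4, 13 members are filled and all lie to the right of 0. In number 2, 4 are filled and all lie to the left.

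In the early, mevalonate part of the route, 3 of 8 members rose in number 4. Hmgcs1, which condenses acetoacetyl-CoA with acetyl-CoA, was 0.99 ± 0.17 (SE) higher on the log2 scale (adjusted p = 0.000974, edgeR). Fdps, which makes farnesyl diphosphate, was 1.46 ± 0.25 higher (0.0011), and Idi1, the isomerase that starts isoprenoid assembly, 0.70 ± 0.20 (0.0473). The other 5 members of this part, Acat2, Mvk, Pmvk, Mvd and Ggps1, were not called for any number.

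Between squalene and cholesterol 5 of 11 members rose in number 4: Fdft1 (squalene synthase) by 0.72 ± 0.18, Sqle (squalene epoxidase, a control point) by 1.08 ± 0.16, Cyp51 (lanosterol demethylase) by 0.94 ± 0.16, Msmo1 (sterol methyl oxidase) by 1.21 ± 0.26 and Hsd17b7 (sterol ketone reductase) by 1.90 ± 0.21 on the log2 scale. Their edgeR adjusted p-values were 0.0186, 0.000286, 0.00136, 0.00742 and 2.05e-05. Hsd17b7 stood apart, being called in every number: the differences were -1.94 ± 0.29 in number 1, -1.41 ± 0.25 in number 2 and 1.45 ± 0.21 in number 3 (adjusted p = 0.000461, 0.00481 and 0.000401, edgeR). Lss, Tm7sf2, Nsdhl, Ebp, Sc5d and Dhcr7 were called in none.

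Of the SREBP regulators, Insig1 was called in number 4 (1.28 ± 0.25, adjusted p = 0.00407, edgeR). The 4 others did not pass in any number: the number 4 difference was 0.44 ± 0.28 for Srebf1, 0.12 ± 0.33 for Srebf2, -0.33 ± 0.23 for Scap and 0.26 ± 0.22 for Insig2. Fatty acid genes had 4 of 6 members higher in number 4: the desaturases Scd1 (2.38 ± 0.34) and Scd2 (1.80 ± 0.17), the elongase Elovl6 (0.87 ± 0.24) and the carboxylase Acaca (0.63 ± 0.18). Acly (0.27 ± 0.15) and Fasn (0.17 ± 0.26) were not called, nor was the sterol carrier Stard4 (0.56 ± 0.23).

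The difference by number did not rest on number 4 alone for 3 members. When its libraries were left out, 5 of 31 were called over the remaining numbers, beside 14.2% of all genes in that fit: Scd2 (adjusted p = 0.00021), Hsd17b7 (1.6e-06), Scd1 (0.00225), Srebf1 (0.0137) and Srebf2 (0.0221, edgeR), the last 2 of which had not passed over all numbers. Hmgcs1 (0.806), Fdps (0.591), Sqle (0.263), Cyp51 (0.416) and Insig1 (0.850) no longer passed.

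Cyp51, Fdft1 and Msmo1, all called higher in number 4, are given next by library in CPM. They were named for their calls by number, so their values illustrate the difference and add no support. In numbers 2, 3 and 4 of the control group, Cyp51 was at 54.1, 82.3 and 124 CPM, with 4 reads in number 1. Numbers 1 to 4 gave 57.6, 54.9, 49.8 and 83.5 CPM with miR-23a, 81.9, 37.0, 53.0 and 130 with miR-24, and 62.9, 66.7, 59.1 and 130 in the miR-27a libraries. Number 4 was the highest library of Cyp51 in all 4 groups.

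Fdft1 was at 39.0, 43.9 and 89.3 CPM in controls 2 to 4 (1 read in control 1). It was at 83.3, 39.4, 34.7 and 61.3 CPM with miR-23a, 59.6, 44.3, 46.5 and 92.6 with miR-24, and 61.0, 39.0, 51.6 and 78.7 in the miR-27a libraries. Number 1 was high beside number 4 for this gene, and with miR-23a it was higher. Exons of Fdft1 share 18.3% of their bases with Ctsb on the opposite strand, and the strand setting of the counts is not stated.

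Msmo1 was at 5.20, 4.77 and 13.9 CPM in controls 2 to 4 (1 read in control 1). It was at 2.96, 3.87, 6.42 and 9.78 CPM with miR-23a, 3.34, 4.44, 10.4 and 16.1 with miR-24, and 6.13, 6.58, 15 and 11.1 in the miR-27a libraries. In each mimic group both low values were numbers 1 and 2. Groups overlapped throughout for Cyp51, Fdft1 and Msmo1, and none of the 3 was called between groups.

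Members tended to vary together once group means were removed. The median Pearson r over the 465 pairs of members was 0.31 in the 15 deeper libraries, where the median over all pairs of tested genes was -0.0011. With control replicate 1 included, the medians were 0.23 and 0.12. Against the median of the other members, over 15 libraries, r was 0.86 for Fdps, 0.85 for Insig1, 0.83 for Scd2 and 0.83 for Scd1, and lowest for Mvd (-0.26), Ggps1 (-0.21) and Tm7sf2 (-0.15). These are descriptions without a test, since libraries share depth and number. Differences between numbers were left in these values, and the list's rule already states such variation. The correlations therefore restate it and are not independent support.

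Members also differed between the mimic groups, in a way that depended on the block. With the replicate number as a block, 9 of 31 differed over the 4 groups, beside 9.68% of all genes: Hmgcs1, Idi1, Fdps, Sqle, Hsd17b7, Dhcr7, Insig1, Scd1 and Scd2. Without the block, edgeR called 0 of 31 over the 4 groups and 0 of 31 in each pair of groups, with 9 members at an unadjusted p under 0.05 over the 4 groups and 4 to 9 in the pairs. The shares of all genes called without the block were 1.94% over the 4 groups, 0.131%, 0.849% and 0.17% for miR-23a, miR-24 and miR-27a against control, 0.88% for miR-24 against miR-27a, 1.1% for miR-23a against miR-24 and 0.548% for miR-23a against miR-27a. Every call of a member between groups given here therefore rests on comparing libraries within a number. The 3 comparisons with control share the control libraries, and each other pair shares libraries with them.

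**Figure D3:**
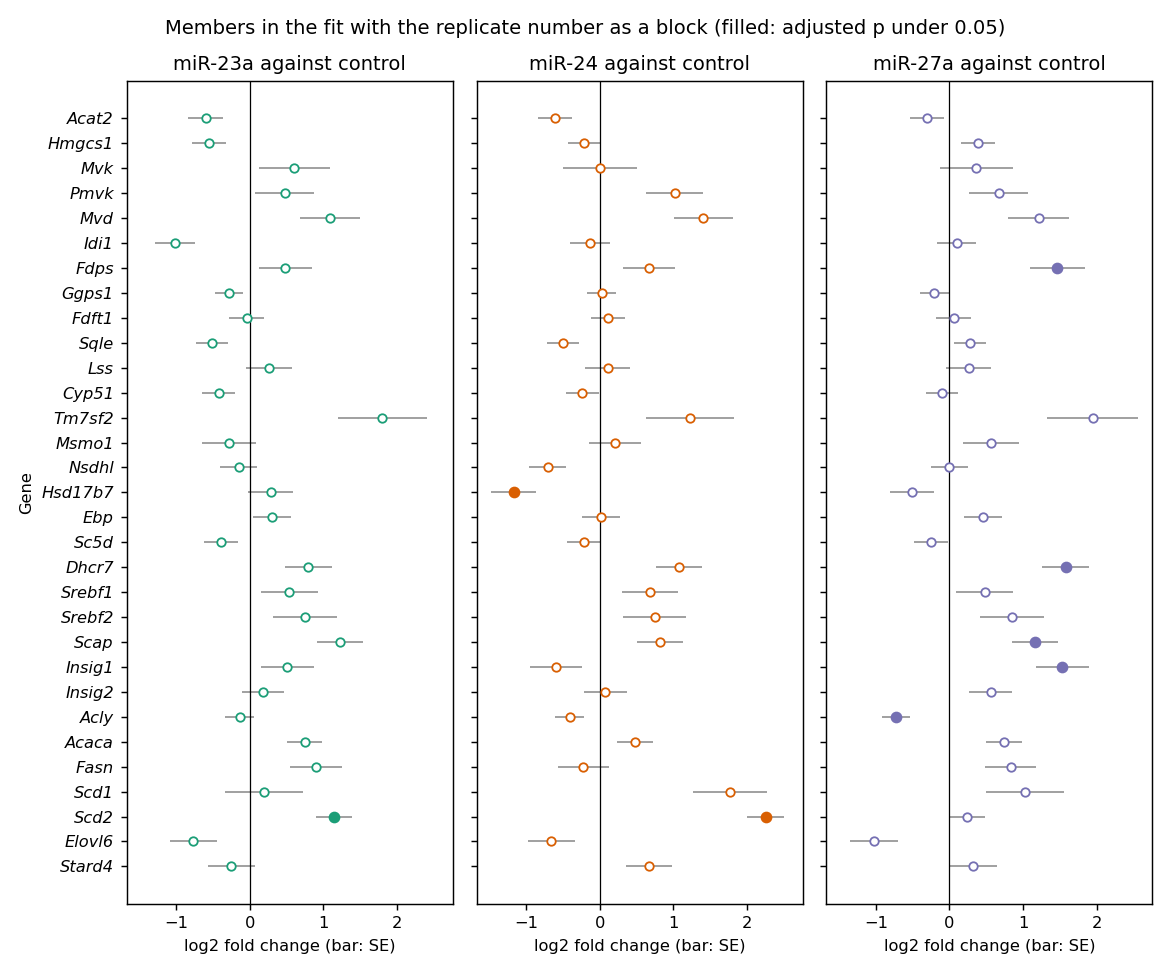
Log2 fold change of each member with miR-23a, miR-24 and miR-27a against control, from the fit with replicate number as a block. Bars are standard errors and filled points have an adjusted p under 0.05. Filled points are few: 1 in miR-23a against control, 2 in miR-24 against control and 5 in miR-27a against control.

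Scd2, which puts a double bond into saturated fatty acids, had the largest called change of any member against control. Controls 2, 3 and 4 had 43.8, 82.2 and 103 CPM, with 2 reads in control 1. Libraries 1 to 4 had 104, 182, 352 and 794 CPM with miR-24, 53.6, 84.3, 121 and 423 with miR-23a, and 38.1, 39.0, 93.9 and 139 with miR-27a. In every number the miR-24 library was the highest and the miR-23a library second. The control (up to 103 CPM) and miR-24 (from 104 CPM) ranges met without overlapping, while miR-24 overlapped miR-23a and miR-27a.

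Scd2 rose with miR-24 by 2.25 ± 0.25 on the log2 scale against control (adjusted p = 8.76e-05, edgeR with block, and 0.166 without the block). It was 2.02 ± 0.23 higher with miR-24 than with miR-27a (0.000163, and 0.162 without the block) and lower with miR-23a than with miR-24, by a log2 difference of -1.11 ± 0.22 (0.00545, and 0.58). These 3 calls passed in all 16 fits that left out 1 library each. Without control replicate 1, the miR-24 difference from control was 2.27 (0.000376). For miR-27a against control the difference was 0.24 ± 0.24 (0.583).

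Beside this, dendritic cell marker sums were 16.3, 28.6, 23.1 and 38.6 CPM in controls 1 to 4 and 26.7, 54.0, 57.1 and 82.2 CPM in miR-24 libraries 1 to 4, higher with miR-24 in each number as Scd2 was. Most of each sum was Batf3, which T cells can express too, at 23.9 to 77.4 CPM with miR-24. In both groups the other 4 of the 5 markers stayed at or below 4.59 CPM each, and Flt3 had reads in only 1 of the 8 libraries. T cell marker sums were 1653 to 2292 CPM in controls and 1498 to 1755 with miR-24. The part of these markers in the Scd2 difference was not tested.

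With miR-23a, whose 8mer Scd2 carries in its 3′ UTR, Scd2 was 1.15 ± 0.24 higher than control (adjusted p = 0.0401, edgeR with block) and 0.91 ± 0.22 higher than with miR-27a (0.0308). The first call was kept in 6 of 16 fits that left out 1 library, with adjusted p up to 0.249, and gave 0.0618 without control replicate 1. The second was kept in 10 of 16, up to 0.135. Scd1, the second desaturase, was low: 0.392, 6.67 and 5.03 CPM in controls 2 to 4 (1 read in control 1), 2.78, 0.455, 3.17 and 12.8 with miR-23a, 6.85, 1.07, 17.3 and 36.3 with miR-24, and 2.26, 3.29, 8.59 and 16.6 in the miR-27a libraries. It was called in 1 pair, -1.57 ± 0.45 with miR-23a against miR-24 (0.0469), kept in 5 of 16 fits, and gave 0.0526 without control replicate 1.

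**Figure D4:**
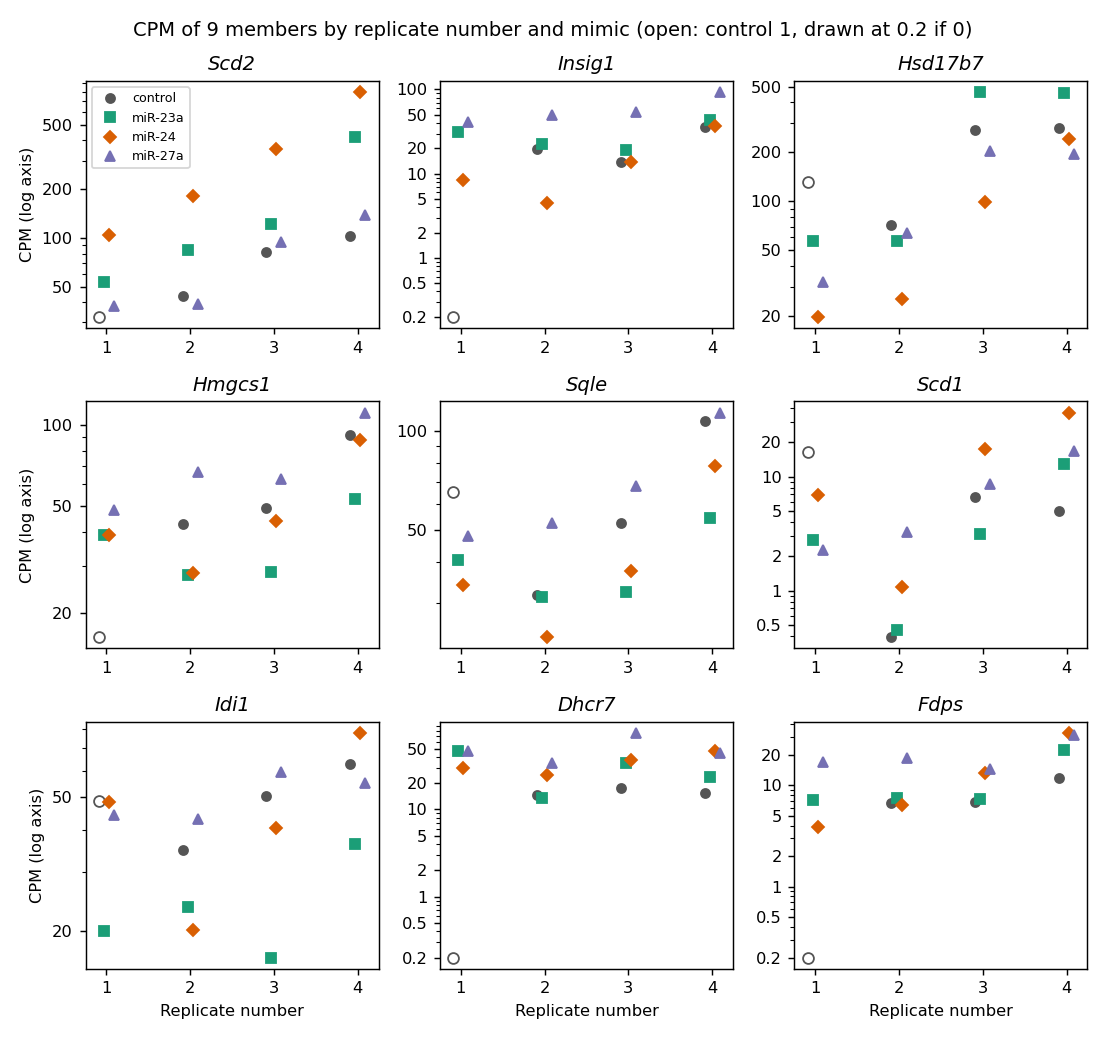
CPM (log axis) of 9 members by replicate number, one symbol per mimic group; the open circle is control replicate 1, drawn at 0.2 where it had 0 reads. Scd2 with miR-24 (104 to 794 CPM) is the highest of each number, and Insig1 with miR-27a (41.0 to 92.7 CPM) is too.

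The other fatty acid genes differed less. Acly was at 135, 146 and 196 CPM in controls 2 to 4 (10 reads in control 1), 206, 155, 103 and 137 with miR-23a, 144, 106, 112 and 132 with miR-24, and 97.4, 81.7, 81.0 and 138 in the miR-27a libraries. It was below control within each number with miR-27a, a difference of -0.73 ± 0.19 (adjusted p = 0.0477, edgeR with block), and was kept in 6 of 16 fits with 1 library left out (0.0555 without control replicate 1). The 3′ UTR of Acly holds a miR-27a 7mer and opens with a miR-24 8mer. With miR-24 the difference was -0.41 ± 0.19 and did not pass (0.246).

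Fasn, the synthase itself, was at 51.7, 38.3 and 34.4 CPM in controls 2 to 4 (3 reads in control 1). It was at 90.1, 39.6, 114 and 82.5 CPM with miR-23a, 23.6, 23.3, 41.0 and 63.1 with miR-24, and 89.0, 81.7, 69.3 and 61.9 in the miR-27a libraries. Only the pair of miR-23a against miR-24 was called among the 6, at 1.12 ± 0.32 (adjusted p = 0.0482, edgeR with block), kept in 5 of 16 fits and lost without control replicate 1 (0.0691). Acaca ran from 28.0 to 77.9 CPM and Elovl6 from 7.91 to 60.5 CPM in the 15 deeper libraries, with no call between groups.

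Insig1, the sterol-sensing brake on SREBP and itself an SREBP target, was highest with miR-27a. Libraries 1 to 4 had 41.0, 49.8, 54.6 and 92.7 CPM with miR-27a and 8.52, 4.44, 13.8 and 37.1 with miR-24. They had 30.9, 22.5, 18.9 and 43.6 CPM with miR-23a, and 19.4, 13.9 and 35.8 in controls 2 to 4, with 0 reads in control 1. All 4 miR-27a libraries lay above all 4 miR-24 libraries.

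miR-24 against miR-27a gave a log2 difference of -2.12 ± 0.34 for Insig1 (adjusted p = 0.0018, edgeR with block, and 0.0967 without it), kept in all 16 fits that left out 1 library. Against control, Insig1 rose with miR-27a by 1.53 ± 0.36 (0.027) and gave -0.59 ± 0.35 with miR-24 (0.365). The rise was kept in 12 of 16 fits. It was lost without control replicate 3 (0.160), control replicate 4 (0.107), miR-27a replicate 2 (0.111) or miR-27a replicate 3 (0.120), and without control replicate 1 it was 1.49 (0.0451). The 3′ UTR of Insig1 holds a miR-24 7mer (shown above) and a miR-23a 7mer, and none of the miR-27a sites searched.

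Scap, the escort of SREBP, was at 29.7, 26.1 and 9.75 CPM in controls 2 to 4 with 0 reads in control 1. It was at 40.2, 34.2, 61.0 and 44.0 CPM with miR-23a, 20.6, 35.5, 42.9 and 37.8 with miR-24, and 41.9, 46.0, 55.6 and 31 in the miR-27a libraries. Against control the miR-27a rise was 1.17 ± 0.31 (adjusted p = 0.0488, edgeR with block), kept in 5 of 16 fits and lost without control replicate 1 (0.0663). Exons of Scap share 13.2% of their bases with an unnamed transcript on the opposite strand.

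The transcription factors themselves were not called between groups. Srebf1 was at 48.8, 42.7 and 25.3 CPM in controls 2 to 4 (3 reads in control 1), 27.1, 33.2, 92.4 and 71.2 with miR-23a, 17.2, 42.8, 92.0 and 106 with miR-24, and 40.3, 44.6, 60.7 and 47.7 in the miR-27a libraries. Srebf2 was at 118, 127 and 45.4 CPM in controls 2 to 4 (3 reads in control 1), 127, 80.2, 223 and 172 with miR-23a, 50.3, 95.4, 222 and 267 with miR-24, and 153, 151, 209 and 108 in the miR-27a libraries. Both genes were low in number 1 and high in numbers 3 and 4 with miR-24, and the groups overlapped. Insig2, the second INSIG, ran from 33.2, 24.9 and 25.6 CPM in controls 2 to 4 (0 reads in control 1) to 21.0, 30.7, 25.0 and 43.1 with miR-23a, 27.9, 19.4, 32.2 and 30.5 with miR-24, and 34.5, 31, 48.6 and 38.7 in the miR-27a libraries, also without a call.

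Among the enzymes from squalene to cholesterol, Hsd17b7, Dhcr7 and Sqle were called between groups. For Hsd17b7, controls 2 to 4 had 71.2, 271 and 279 CPM and control 1 had 8 reads. Libraries 1 to 4 had 57.3, 57.2, 461 and 457 CPM with miR-23a, 19.7, 25.4, 98.8 and 238 with miR-24, and 32.3, 63.9, 202 and 194 in the miR-27a libraries. In numbers 1, 2 and 3 the miR-24 library was the lowest of the group set, and in each group numbers 3 and 4 lay above numbers 1 and 2.

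Hsd17b7 was 1.45 ± 0.28 higher with miR-23a than with miR-24 (adjusted p = 0.0053, edgeR with block, and 0.564 without it), kept in all 16 fits with 1 library left out. With miR-24 the difference from control was -1.17 ± 0.30 (0.0355), kept in 10 of 16 fits and lost without control replicate 1 (0.0517). No annotated miR-24 site of the searched kinds was present in its 3′ UTR.

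Dhcr7, the last reductase before cholesterol, was at 14.5, 17.6 and 15.5 CPM in controls 2 to 4, with 0 reads in control 1. It was at 46.5, 33.8, 75.1 and 44.2 CPM with miR-27a, 29.6, 24.8, 36.7 and 47.2 with miR-24, and 47.1, 13.7, 34.5 and 23.5 with miR-23a. All 4 miR-27a libraries and all 4 miR-24 libraries were above the 3 deeper controls. Dhcr7 rose with miR-27a by 1.58 ± 0.32 (adjusted p = 0.0127, edgeR with block, and 0.0686 without it). The call was lost without control replicate 3 (0.104) or miR-27a replicate 3 (0.0849) and was 0.0225 without control replicate 1. With miR-24 the difference was 1.08 ± 0.31 (0.053).

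Sqle was at 31.7, 52.5 and 107 CPM in controls 2 to 4 (4 reads in control 1), 40.5, 31.2, 32.4 and 54.5 with miR-23a, 33.9, 23.5, 37.4 and 78.4 with miR-24, and 48.1, 52.6, 68.3 and 114 in the miR-27a libraries. The miR-27a library was above the miR-23a and miR-24 libraries in each number. miR-24 against miR-27a gave -0.77 ± 0.20 (adjusted p = 0.0377, edgeR with block, kept in 10 of 16 fits) and miR-23a against miR-27a -0.78 ± 0.21 (0.0448, kept in 5 of 16 and 0.0524 without control replicate 1).

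Among the mevalonate enzymes, 3 were called between groups. Hmgcs1 was at 42.8, 48.9 and 91.3 CPM in controls 2 to 4 (1 read in control 1), 39.1, 27.8, 28.3 and 52.7 with miR-23a, 38.9, 28.1, 43.9 and 87.8 with miR-24, and 48.1, 66.7, 62.9 and 111 in the miR-27a libraries. miR-27a was highest in each number. Against miR-27a, miR-23a gave -0.94 ± 0.22 (adjusted p = 0.0227, edgeR with block, kept in 11 of 16 fits), and the miR-24 difference did not pass (-0.60 ± 0.21, 0.126). Exons of Hmgcs1 share 12.1% of their bases with an unnamed transcript on the opposite strand.

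Idi1 was at 34.8, 50.5 and 62.6 CPM in controls 2 to 4 (3 reads in control 1), 20.1, 23.7, 16.7 and 36.2 with miR-23a, 48.3, 20.2, 40.6 and 77.6 with miR-24, and 44.2, 43.2, 59.5 and 55.3 in the miR-27a libraries. All 4 miR-23a libraries were below all 4 miR-27a libraries. The difference was -1.11 ± 0.26 (adjusted p = 0.0233, edgeR with block, kept in 11 of 16 fits), and -0.88 ± 0.25 against miR-24 (0.0494, kept in 5 of 16 and 0.0643 without control replicate 1). Against control, Idi1 gave -1.01 ± 0.27 with miR-23a and did not pass (0.107).

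Fdps was at 6.67, 6.76 and 11.7 CPM in controls 2 to 4 with 0 reads in control 1, 7.17, 7.51, 7.30 and 22.3 with miR-23a, 3.84, 6.33, 13.1 and 32.6 with miR-24, and 16.8, 18.3, 14.3 and 31.3 in the miR-27a libraries. All 4 miR-27a libraries lay above all controls. The rise against control was 1.47 ± 0.37 (adjusted p = 0.0359, edgeR with block), kept in 9 of 16 fits and 0.0529 without control replicate 1. Gm43738, annotated on the same strand, covers 26.7% of Fdps exon bases, so its reads may be split or dropped.

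Counted over the set, miR-27a against control had 4 members higher and 1 lower of 31 by the test, beside 1.75% and 1.32% of all genes, and a median log2 fold change of 0.39, where the median of all tested genes was 0.02. The signs were 23 positive and 8 negative, where 51.4% of all genes were positive. Within numbers, 12 members were higher and 5 lower with miR-27a in 4 of 4 numbers, beside 19% and 10.8% of all genes. In number 1 the comparator is control replicate 1, where 11 members had 0 reads. A gene with 0 reads there could not come out lower in that number, so its sign in number 1 adds nothing. This holds for the shares of all genes too. Median log2 fold changes were 0.26 with miR-23a (1 member higher, 0 lower, beside 0.0386% and 0.386%) and 0.08 with miR-24 (1 higher, 1 lower, beside 2.32% and 2.25%). All control comparisons include the shallow control replicate 1: without it, 0, 1 and 2 members were called for miR-23a, miR-24 and miR-27a. The shares of all genes called without it are not given here, so these drops cannot be read as particular to the members.

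Between mimics, miR-24 against miR-27a had 1 member higher and 2 lower, beside 1.8% and 2.62% of all genes, and a median of -0.26. In this pair 20 of 31 were negative, where 52.2% of all genes were positive. miR-23a against miR-27a had 1 higher and 3 lower, beside 0.957% and 1.99%, and a median of -0.14. Here 21 of 31 were negative, where 52.8% of all genes were positive. miR-23a against miR-24 had 2 higher and 3 lower, beside 2.73% and 2.65%, and a median of -0.11. It fell to 2 calls without control replicate 1, with the share of all genes in that fit not given here. T cell marker sums were 1498 to 1755 CPM with miR-24 and 2170 to 2502 with miR-27a, and dendritic cell marker sums 26.7 to 82.2 and 23.0 to 39.3 CPM. Their part in the differences between these groups was not tested.

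The members below passed in no comparison of groups and complete the set. In the 15 deeper libraries Acat2, a thiolase, ran from 16.5 to 41.1 CPM (a near-identical gene, Acat3, may share its reads), Mvk from 1.17 to 4.47, Pmvk from 2.5 to 13.0 and Mvd from 1.98 to 9.14. Ggps1, which has 8mers for miR-23a and for miR-24, ran from 46.5 to 78.7 CPM, with log2 differences from control of -0.28 ± 0.19 and 0.03 ± 0.20 in those groups. Lss, Nsdhl, Ebp and Sc5d each stayed within 2.75-fold. Stard4, a cytosolic sterol carrier, ran from 12.8 to 63.3 CPM.

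Genes around the route were taken from lists of the same pathway. Of 19 other sterol and lipid synthesis genes tested, 1 rose with miR-23a against control, 1 did so with miR-24, 3 did so with miR-27a, and 0 fell. Mid1ip1, an activator of acetyl-CoA carboxylase, rose in all 3: 2.53 ± 0.52, 2.97 ± 0.50 and 2.47 ± 0.52 (adjusted p = 0.0357, 0.00283 and 0.0155, edgeR with block). The desaturases of polyunsaturated fatty acids Fads1 (1.21 ± 0.30) and Fads2 (4.52 ± 0.88) rose with miR-27a (0.0351 and 0.0105), and Fads1 differed by -1.32 ± 0.27 in miR-24 against miR-27a (0.00944). Both Mid1ip1 and Fads2 were scarce in controls 2 to 4, at 0.294 to 1.89 CPM and 0 to 0.762 CPM, beside 3.23 to 7.15 and 4.70 to 8.06 CPM with miR-27a, so their folds rest on few control reads. Without the block, the miR-24 rise of Mid1ip1 (0.0428) and the Fads1 difference (0.0413) still passed.

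By number, Me1, which makes NADPH for lipid synthesis, was 2.20 ± 0.47 higher in number 4 (adjusted p = 0.00763, edgeR) and 3.15 ± 0.50 higher in number 3 (0.000766). The fatty acid activating enzyme Acsl3 was 0.89 ± 0.20 higher in number 4 (0.0113).

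Of 12 genes tested from the fatty acid oxidation list, 2 fell with miR-24 against control, Cpt1a (-0.96 ± 0.20), the gate of mitochondrial import, and Acadm (-0.92 ± 0.25). With miR-27a 1 gene of the list fell, Pparg, a lipid-sensing receptor and not an oxidation enzyme (-1.47 ± 0.27, adjusted p = 0.00749, edgeR with block). Of 9 SREBP processing genes, Erlin1, which helps degrade sterol enzymes, was called in 2 pairs: 0.84 ± 0.18 with miR-24 against miR-27a and -1.31 ± 0.18 with miR-23a against miR-24 (0.0102 and 0.000408). Of 11 efflux and storage genes tested, 0 were called against control by edgeR with block, where 1 to 4 had an unadjusted p under 0.05. Between mimics, the cholesterol exporter Abca1 was 1.47 ± 0.28 higher with miR-24 than with miR-27a (0.00542).

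None of 12 prenylation genes was called in any pair by edgeR with block, where 0 to 3 had an unadjusted p under 0.05. Of 20 proliferation genes, 1 was called against control, Ccnb1 with miR-27a (1.23 ± 0.23, adjusted p = 0.00665). In the same comparison 16 of 20 proliferation genes were positive, beside 51.4% of all genes, with a median of 0.16. Its part in the member differences was not tested.

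Promoter letters were read for the 25 of 31 members that matched a RefSeq promoter window (GRCm38.p6, 250 bases before to 50 after the start). CCAAT, the letters bound by NF-Y, which acts beside SREBP at sterol genes, was present on either strand in 21 of 25 members (84%), beside 41.1% of 27025 genes. CACGTG, an E-box, was present in 5 of 25 (20%), beside 8.09%. The classical sterol element, searched as TCACNCCAC on both strands, was present in 1 of 25, Hmgcs1 (4%, beside 1.44%). No overlap between these motifs was counted. The Hmgcs1 window carries the sterol element and 4 CCAAT boxes (as ATTGG), the Hsd17b7 window 3 boxes and the Insig1 window 1 box, the last 2 without such an element. Hsd17b7 and Insig1 each also hold 1 E-box, left in lower case. The 3 are shown as the members with a window that were called both over all 4 numbers together and over the 4 groups. Idi1, called in number 4, did not pass over all numbers (adjusted p = 0.071, edgeR). The sterol element and CCAAT boxes are in capitals and each sequence is on the gene's own strand:
Hmgcs1, chr13:119690101-119690400, plus strand: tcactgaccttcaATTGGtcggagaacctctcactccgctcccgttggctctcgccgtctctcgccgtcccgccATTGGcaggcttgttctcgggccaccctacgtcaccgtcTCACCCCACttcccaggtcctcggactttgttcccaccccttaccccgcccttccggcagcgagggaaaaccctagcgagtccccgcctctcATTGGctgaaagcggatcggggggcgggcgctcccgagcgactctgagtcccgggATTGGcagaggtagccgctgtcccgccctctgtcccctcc
Hsd17b7, chr1:169969156-169969455, minus strand: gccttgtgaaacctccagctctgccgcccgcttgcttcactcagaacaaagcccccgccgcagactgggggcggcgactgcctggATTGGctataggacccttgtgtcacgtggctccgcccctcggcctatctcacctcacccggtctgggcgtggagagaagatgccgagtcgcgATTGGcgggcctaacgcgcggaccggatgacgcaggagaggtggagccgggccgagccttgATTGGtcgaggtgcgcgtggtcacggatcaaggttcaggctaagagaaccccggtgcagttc
Insig1, chr5:28071162-28071461, plus strand: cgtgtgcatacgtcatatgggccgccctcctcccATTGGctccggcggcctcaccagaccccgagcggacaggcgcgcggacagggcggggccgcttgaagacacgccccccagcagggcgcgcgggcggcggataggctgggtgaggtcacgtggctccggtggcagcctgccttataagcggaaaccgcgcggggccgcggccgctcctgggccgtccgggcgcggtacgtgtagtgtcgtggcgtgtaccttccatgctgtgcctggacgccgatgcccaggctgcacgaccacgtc
A match is only these letters in the window, and binding was not measured. The share of CCAAT was counted over genes with 1 or more windows, and 22 of 33 member windows held it, against 37.4% of all windows.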

How the data were processed

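Sequencing libraries were made from 1 ng of RNA, with single-end 50 bp reads, per the labels' protocols. Alignment tools (TopHat, Bowtie2), DESeq and the mm10 build are listed in the submitters' processing notes, while the counter and strand setting are not given in the sources used here. The authors deposited raw read counts for 23337 symbols in each library, plus 5 summary lines (64.6% to 77.6% of all reads), which were left out.

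Counts were fitted in edgeR 4.0.16 (TMM, filterByExpr, robust quasi-likelihood, 12952 genes, Benjamini-Hochberg at 0.05) with group and replicate number, as the list's rule asks. The biological coefficient of variation was 0.290. DESeq2 1.42.0 and limma 3.58.1 were alternatives. The fit was also run on counts simulated from itself, in which same-numbered libraries shared a profile by design. That run therefore cannot check the block. Log2 values used a prior count of 2. Some genes of the other lists are not reported here. The members and lists were chosen with earlier results of these data known. Named genes are those called between groups, the 10 most variable by number and 10 control points.

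The numbers were checked as a pairing. After group means were removed, same-numbered libraries correlated over 4746 genes with r above 0.1 in 4 of 4 pairs for control with miR-27a, miR-23a with miR-24 and miR-23a with miR-27a, and in 3 of 4 for the other pairs of groups (lowest -0.12, 0.0304 and -0.0072).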

Additional observations from a re-analysis of the deposited data

Results flagged for a closer look

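In 124 member-by-group sets of 4 libraries, 5 had 1 library far from the other 3 by Dixon's criterion, which chance alone gives in about 1 set in 20. With miR-23a, Fdps was at 22.3 CPM in replicate 4, where the next highest was 7.51, and Ebp was at 21.7 CPM in replicate 1, where the next was 13.2. With miR-27a, Cyp51 was at 130 CPM in replicate 4, where the next was 66.7. In control replicate 1, Pmvk was at 0 CPM and Lss at 32.6 CPM, from 0 and 2 reads.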

How the results depend on the processing

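Of the 20 calls of a member in a pair of groups, taken over 26 alternatives each, 320 results kept direction and call, 200 kept direction but no longer passed, and 0 reversed. Members called were 9 over the 4 groups, 1, 2 and 5 for miR-23a, miR-24 and miR-27a against control, 3 for miR-24 against miR-27a, 5 for miR-23a against miR-24, 4 for miR-23a against miR-27a, and 11 by number.

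With no replicate block the count was 0 in all 7 group tests. For the 3 pairs of groups whose numbers did not all correlate, libraries may share only a number, and the cause of a lost call was not tested. Voom with sample weights gave 3 over the 4 groups, 0 for miR-23a and 1 for miR-24 against control, and 2 for miR-23a against miR-24. DESeq2 gave 4 for miR-23a and 5 for miR-24 against control. For miR-24 against control, RLE size factors gave 5 and no low-count filter 4. Fitting 2 groups alone gave 0, 4 and 10 against control for miR-23a, miR-24 and miR-27a. Counts in this section are given without the share of all genes called in the same fit. A change in them therefore cannot be told apart here from a change over all genes, and is not a result about the members.

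Leaving out all libraries of a number was added after seeing the data for numbers 2, 3 and 4. Over the 4 groups, 1 was left without number 3. Against control, miR-23a had 0 without number 1, 3 or 4. miR-24 had 4, 1 and 1 without number 1, 2 and 3. miR-27a had 2, 3, 0 and 2 without number 1, 2, 3 and 4. miR-24 against miR-27a had 5 without number 4. miR-23a against miR-24 had 2, 3 and 0 without number 1, 2 and 3. miR-23a against miR-27a had 1, 0 and 2 without number 2, 3 and 4. By number, 5 were left without number 4 and 7 without the group term.

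Leaving out 1 library at a time gave 3 to 11 over the 4 groups, 0 to 2, 1 to 6 and 0 to 8 against control, 2 to 5 for miR-24 against miR-27a, 2 to 6 for miR-23a against miR-24, 0 to 4 for miR-23a against miR-27a, and 10 to 12 by number. Depth limits control replicate 1, where 3 reads are 48.8 CPM.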
